A study of Danio rerio with 16 samples.

Results

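The 10 genes described here are the zebrafish genes commonly read as reporters of blood flow and of the transcriptional co-activators YAP and TAZ. They are the Krüppel-like factor genes klf2a, klf2b, klf4 and klf6a, the matricellular genes ccn1, ccn2a and ccn2b, the ankyrin repeat gene ankrd1a, and the angiomotin-like genes amotl2a and amotl2b. They were chosen by gene name, with earlier results of these data known, from 26183 genes in 3 deposited count tables. All 10 were present in at least 1 table, 9 were present in all 3, and the same 9 had enough reads to be tested. The choice drew on the comparison of 1 µg/L with the control, in which klf2a and ccn1 had stood out, so values from that comparison are given as a description and support nothing.

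Zebrafish were exposed to PFBA (perfluorobutanoic acid), a perfluoroalkyl acid with a short carbon chain, over 7 days. Poly(A) RNA of the larvae, 7 days old, was sequenced. Exposure and age are both given as 7 days, so the exposure was not confined to larval stages. The solvent control, which received DMSO, had 4 libraries, and PFBA was given at 0.1 µg/L (3 libraries), 1 µg/L (4 libraries) and 10 µg/L (5 libraries). The strain, the number of larvae in a tube and whether the libraries came from separate clutches are not stated in the sources used here, so p-values measure the spread between these libraries only. In RNA of larvae, fewer cells of a type and less RNA per cell cannot be told apart.

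Endothelial cells sense the drag of flowing blood and respond by raising Krüppel-like factor genes, klf2a above all, which in zebrafish takes part in heart valve formation and vessel remodelling. YAP and TAZ are held in the cytoplasm by the Hippo kinases and enter the nucleus when cells are stretched or spread, where with TEAD factors they switch on genes such as ccn1, ccn2 and ankrd1. AMOTL2 is both a target and an inhibitor of YAP, and so closes a feedback loop. Several of these genes also respond within minutes to serum and growth factors, as immediate early genes do.

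Libraries held 9708464 to 13862232 counts. Values below are counts scaled to a common library size (CPM), with library sizes scaled by the TMM method, and each library is called by the number in its column name. At the lowest dose, library 1 and library 2 were unlike the other 14. Their TMM factors were 0.581 and 0.742, against 0.929 to 1.14, and their 10 most abundant genes took 17.05% and 14.43% of counts, against 9.46% to 11.89%. Their summed level of 26 skeletal muscle markers was 124000 and 76400 CPM, against 9680 to 47900 CPM elsewhere. Library 5 at 1 µg/L differed from its group in nr1d1, a repressor of the circadian clock, and in the clock gene per1a, both picked after their values were seen. Its nr1d1 level was 617 CPM, against 19.0 to 26.4 CPM in the other 3 libraries of that dose and 547 to 762 CPM in the controls, and its per1a level was 91.6 CPM, against 3.89 to 5.1 CPM and 65.3 to 86.9 CPM. The 10 µg/L libraries were low as well, with 29.9 to 52.3 CPM of nr1d1 and 2.16 to 9.44 CPM of per1a. At 0.1 µg/L per1a was 15.9, 22.9 and 80.0 CPM, and nr1d1 was 546 to 657 CPM. The part of these clock differences in the values below was not tested. Whether library 5 at 1 µg/L is what its label says was not tested, and this touches every value at 1 µg/L. Values of klf2a, ccn1 and the immediate early genes are given with and without it. Endothelial markers, the defining genes of the cells that sense flow, were present throughout: of 34 genes listed 31 were found, and their summed level was 408 to 480 CPM in the controls, 388 to 441 CPM at 0.1 µg/L, 414 to 452 CPM at 1 µg/L and 418 to 542 CPM at 10 µg/L. Of the 29 endothelial markers tested, edgeR and DESeq2 called 0 at 1 and 10 µg/L, with 2 at an unadjusted p under 0.05 at each of these doses. Over all genes 4.89% and 8.23% had such a p, and edgeR called 0.0681% and 0.225%. None of the 10 marker lists of cell types held a gene called by edgeR at any dose against the control, but some shifted. At 10 µg/L the 25 skeletal muscle markers tested had a median log2 difference of −0.61, 24 of them negative and 0 called by DESeq2, and the 17 intestine markers one of −0.76, 15 of them negative and 3 called by DESeq2. DESeq2 also called 1 smooth muscle marker there, and 1.39% of all genes. At 1 µg/L the intestine median was −0.80, with 14 of 17 negative and 0 called by DESeq2. At 0.1 µg/L the medians were 1.47 for skeletal muscle and 1.26 for intestine, with 10 and 6 called by DESeq2, beside 10.3% of all genes. The part of these markers in the values below was not tested.

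In control larvae the 10 genes spanned a wide range of levels per length, here CPM per kilobase of deposited gene length. klf6a was the most abundant at 24.4 ± 2.28 (SD, n = 4 for each value in this paragraph), followed by amotl2a at 19.9 ± 1.63. Their ranges, 22.2 to 27.4 and 18.7 to 22.3, touched. amotl2b followed at 10.2 ± 1.12, below every amotl2a library. The next places went to ccn2a at 6.98 ± 2.36, ccn1 at 6.94 ± 1.35 and klf2a at 5.81 ± 1.79, and the ranges of these 3 genes overlapped widely. A clear gap separated them from ccn2b at 1.29 ± 0.541, klf4 at 1.07 ± 0.476 and klf2b at 1.01 ± 0.296, which could not be ordered among themselves. ankrd1a was last at 0.0115 ± 0.0229.

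**Figure D1:**
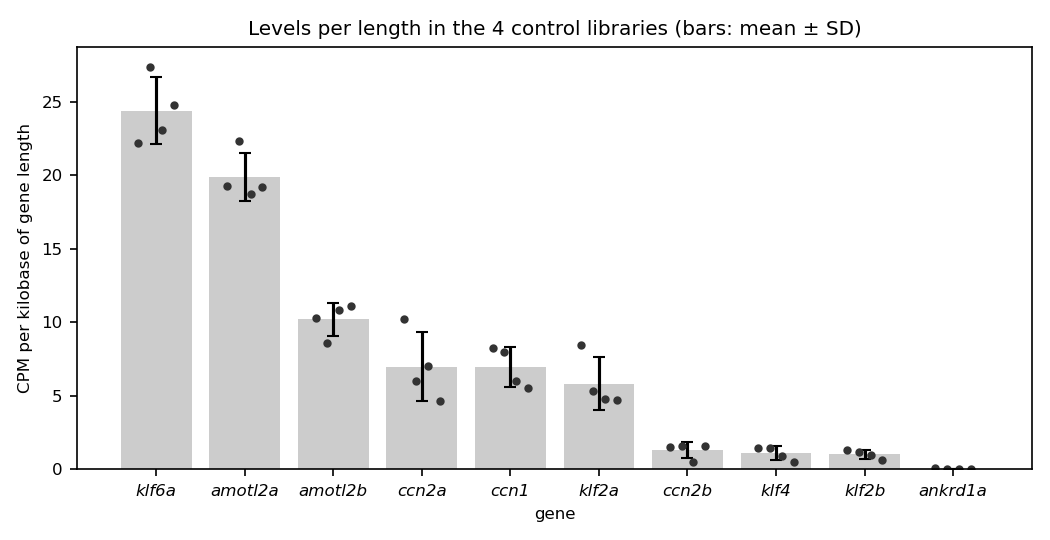
Level per length of the 10 genes in the 4 control libraries, as CPM per kilobase of gene length; grey bars are means, error bars SD and points single libraries. klf6a (24.4) and amotl2a (19.9) lead, ccn2a, ccn1 and klf2a lie between 4.66 and 10.2 in single libraries, and ankrd1a is near 0.

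Among the 4 Krüppel-like factor genes of this set, klf2a was the only one with exposed groups that did not overlap the controls. The gene (ENSDARG00000042667) lies on chromosome 22 of GRCz11, from 15898221 to 15900919 on the plus strand. Control libraries 1, 3, 4 and 5 had 18.4, 11.6, 10.4 and 10.3 CPM, and the libraries at 10 µg/L had 5.62, 4.02, 5.70, 3.87 and 5.72 CPM. At 1 µg/L the 4 libraries had 3.80, 3.59, 3.57 and 4.16 CPM, and at 0.1 µg/L the 3 libraries had 22.9, 19.4 and 7.83 CPM. Every library at 1 and 10 µg/L lay below every control library, as it did for 2.65% and 2.82% of all genes tested. Those libraries also lay below every library at 0.1 µg/L, a separation whose share of all genes was not counted. The 0.1 µg/L libraries lay on both sides of the control range.

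At 10 µg/L the mean of klf2a was 4.99 ± 0.953 CPM (SD, n = 5), against 12.7 ± 3.9 CPM in the controls (SD, n = 4), a log2 difference of −1.34 with SE 0.28. This did not pass the threshold of 0.05 in edgeR's quasi-likelihood test across all 19092 genes tested (Benjamini-Hochberg adjusted p = 0.0629). It did pass in DESeq2 (adjusted p = 0.00352) and, in edgeR, without library 5 at 1 µg/L (0.0465) or library 3 at 0.1 µg/L (0.0102), while without control library 1 the adjusted p was 0.254. Against 0.1 µg/L klf2a was lower at 10 µg/L by a log2 difference of −1.74 (SE 0.30, edgeR adjusted p = 0.00594), where 10.6% of all genes were called. That call rested on the libraries that stood apart: without library 1 at 0.1 µg/L the adjusted p was 0.0583, and without libraries 1 and 2 the log2 difference was −0.65 (adjusted p = 0.964), in a fit that takes the 1 library left to vary like those of the other groups. In those same libraries, with 22.9 and 19.4 CPM of klf2a, the summed level of the 16 heart and endocardium markers found, of 18 listed, was 322 and 252 CPM, against 126 CPM in library 3 of that dose and 88.7 to 137 CPM in the controls. None of the 16 was at 0 throughout. Their summed level was 75.1 to 125 CPM at 1 µg/L and 57.4 to 92.1 CPM at 10 µg/L. The high sums at 0.1 µg/L do not stand for every heart marker. At that dose 7 of the 14 tested had negative log2 differences from the control, with a median of 0.21. There edgeR called 0 and DESeq2 4, with 6 at an unadjusted p under 0.05, beside 0%, 10.3% and 21.8% of all genes. At 10 µg/L all 14 tested had negative log2 differences from the control, with a median of −0.52. Of these edgeR called 0, with 3 at an unadjusted p under 0.05, beside 8.23% of all genes. At 1 µg/L 13 of the 14 were negative, with a median of −0.44, and edgeR called 0, with 0 at an unadjusted p under 0.05. Other marker lists were also higher in libraries 1 and 2 at 0.1 µg/L. Summed levels were 15400 and 10700 CPM for epidermis, 515 and 322 CPM for blood, and 1930 and 1210 CPM for intestine. Control ranges were 1390 to 5530, 59.2 to 210 and 263 to 690 CPM. Smooth muscle and leukocyte markers were also above the control range there, while endothelial, cartilage and neuron markers were not. The part of heart, muscle and other tissue RNA in the klf2a values was not tested.

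In the comparison used for the choice, klf2a at 1 µg/L had a mean of 3.78 ± 0.273 CPM (SD, n = 4), which is 3.34-fold below the control. Without library 5 at that dose the log2 difference was −1.79, against −1.74 with it. Between the doses of 10 and 1 µg/L, klf2a differed by 0.40 on the log2 scale (SE 0.29, edgeR adjusted p = 1.0). The 1 µg/L libraries were also below those at 0.1 µg/L, by −2.14 (SE 0.33, edgeR adjusted p = 0.013), and by −1.06 without libraries 1 and 2 at 0.1 µg/L, where the adjusted p was 1.0. Leaving out library 1 or 2 of either dose alone gave adjusted p values of 0.06 to 0.0813. Relative to the control, 0.1 µg/L gave a log2 difference of 0.39 (SE 0.32, edgeR adjusted p = 0.457). It became −0.67 without libraries 1 and 2 and −0.19 with scaling by library size alone, so no direction can be given at that dose. Without library 3, the lowest of the group, only libraries 1 and 2 remained at that dose. The log2 difference was then 0.74 with an edgeR adjusted p of 0.047. With 1 library left out, up to 6262 genes were called in this comparison, against 0 with all 16 libraries.

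klf2b, the other zebrafish copy of the mammalian KLF2 gene, was called in no comparison. It lies on chromosome 2, from 55665095 to 55673225. Its libraries ranged from 3.77 to 7.87 CPM in the controls, 6.45 to 8.82 CPM at 0.1 µg/L, 4.72 to 10.6 CPM at 1 µg/L and 3.44 to 8.18 CPM at 10 µg/L, so each exposed group overlapped the control. The log2 difference at 10 µg/L was −0.11 (SE 0.31, edgeR adjusted p = 0.994). The ratio of klf2a to klf2b counts within a library, which does not depend on scaling, was 1.66 to 2.72 in the controls, 1.21 to 2.60 at 0.1 µg/L, 0.338 to 0.803 at 1 µg/L and 0.473 to 1.66 at 10 µg/L. The controls and the 10 µg/L libraries met at 1.66, and the 1 µg/L libraries lay below both the controls and the lowest dose. The share of gene pairs whose ratio separates in this way was not counted. klf2a was also among the genes on which the choice was made, so the separation supports nothing.

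klf4, a factor shared by endothelium and epithelia, lies on chromosome 21 from 419801 to 435466 and was scarce, with 159 reads in all 16 libraries. The controls had 1.70, 1.70, 1.04 and 0.562 CPM, and the libraries at 0.1 µg/L had 0, 0.104 and 0.774 CPM. klf4 measured 0.697, 1.32, 0.636 and 1.1 CPM at 1 µg/L, and at 10 µg/L 0.854, 0.464, 0.393, 0.629 and 0.565 CPM. All exposed groups overlapped the controls, and the lowest values were in the 2 libraries at 0.1 µg/L that stood apart, in 1 of which no read was counted. The log2 difference from the control was −1.95 at 0.1 µg/L (SE 0.76, edgeR adjusted p = 0.169) and −1.08 at 10 µg/L (SE 0.59, edgeR adjusted p = 0.70). Without libraries 1 and 2 at 0.1 µg/L the first of these was −0.66. Without library 3 of that dose, which left only the 2 libraries that stood apart, it was −4.25 with an edgeR adjusted p of 0.00452. With 1 library left out, up to 6262 genes were called between 0.1 µg/L and the control.

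klf6a, known in zebrafish from liver and gut growth, was the steadiest of the 4 factors. It lies on chromosome 24, from 4141484 to 4148915 on the minus strand. Its libraries ran from 60.1 to 92.2 CPM over the whole study, with control libraries between 74.8 and 92.2 CPM. The log2 difference from the control was −0.13 at 0.1 µg/L, −0.11 at 1 µg/L and −0.15 at 10 µg/L (SE 0.14, 0.13 and 0.13). With edgeR the adjusted p was 0.604 at 0.1 µg/L and 0.864 at 10 µg/L.

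**Figure D2:**
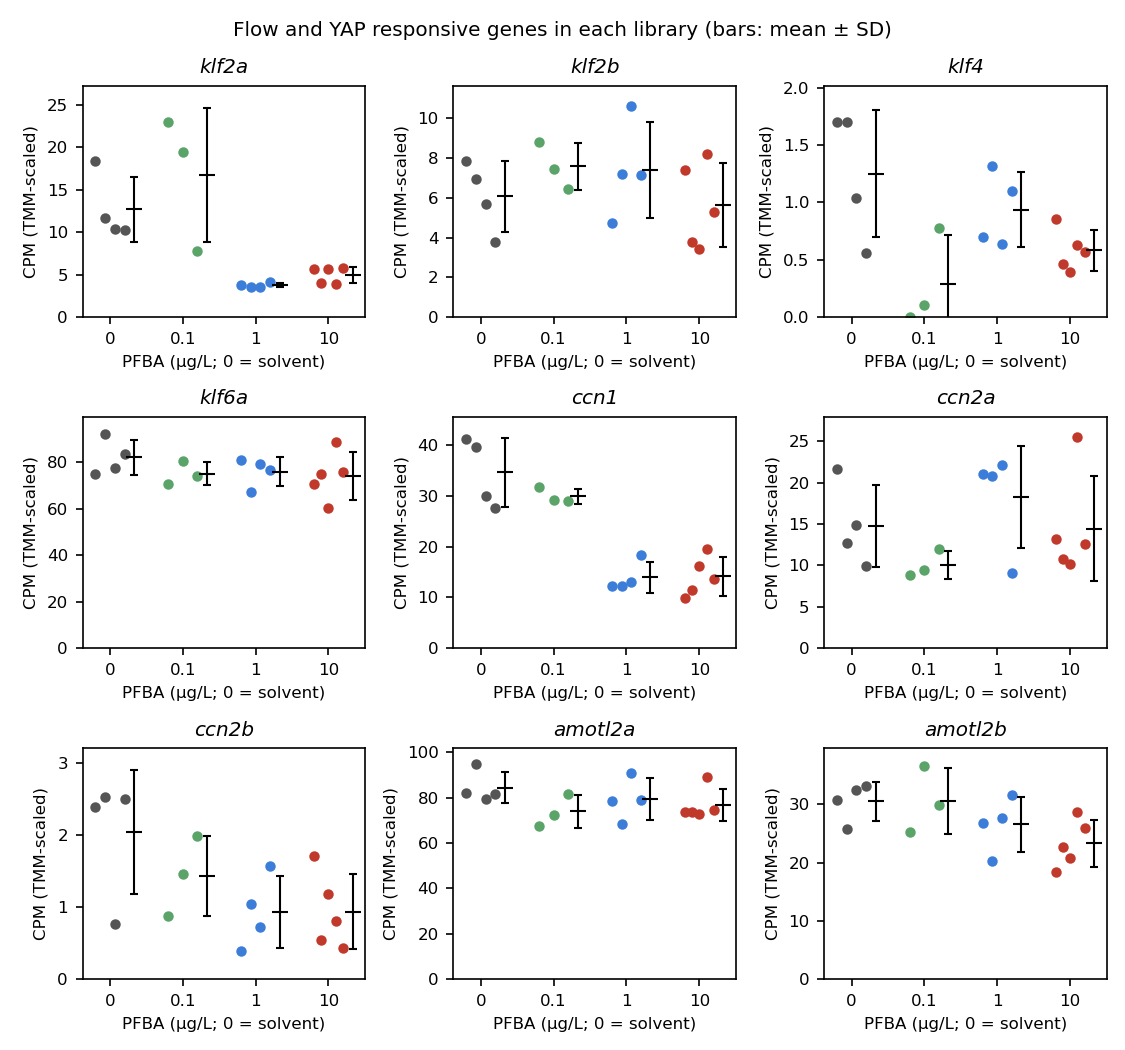
CPM of the 9 tested genes in each library against PFBA dose (0 is the solvent control), with the mean and SD beside each group; the lower arm of klf4 at 0.1 µg/L is cut at 0. For klf2a the libraries at 1 µg/L (3.57 to 4.16) and 10 µg/L (3.87 to 5.72) lie under all controls (10.3 to 18.4), as they do for ccn1, while the other 7 genes overlap.

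Among the matricellular genes, ccn1 was the member called at the highest dose against the control. The gene encodes a secreted, integrin-binding matrix protein and was formerly named cyr61. It (ENSDARG00000023062) lies on chromosome 23, from 45456490 to 45465320 on the plus strand. The control libraries had 41.2, 39.7, 30.1 and 27.7 CPM, and the libraries at 0.1 µg/L had 31.7, 29.2 and 29.1 CPM. ccn1 measured 12.2, 12.2, 13.0 and 18.4 CPM at 1 µg/L, and at 10 µg/L 9.89, 11.5, 16.2, 19.6 and 13.6 CPM. All 9 libraries of the higher doses lay below all 7 of the control and the lowest dose. Against the control alone, 2.65% of all genes did so at 1 µg/L and 2.82% at 10 µg/L. The share against 0.1 µg/L was not counted. Libraries at 0.1 µg/L fell inside the control range.

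At 10 µg/L ccn1 fell to 14.2 ± 3.85 CPM (SD, n = 5) from 34.7 ± 6.76 CPM (SD, n = 4), which is 2.45-fold lower, with a log2 difference of −1.29 (SE 0.21, edgeR adjusted p = 0.0116). The controls are the libraries that also entered the comparison used in the choice, so this is not independent of it. The adjusted p rose to 0.0624 without control library 1, to 0.0579 without control library 3 and to 0.0528 without library 2 at 10 µg/L, with log2 differences of −1.20 to −1.23. The comparison of 10 with 0.1 µg/L has no library in common with the comparison used in the choice. That does not make it independent, since the members were chosen with earlier results of these data known. The p-value for 10 against 0.1 µg/L also draws on all 16 libraries, which share 1 estimate of the spread. There ccn1 was lower at 10 µg/L by a log2 difference of −1.08 (SE 0.22, edgeR adjusted p = 0.0108), where 10.6% of all genes were called. Without libraries 1 and 2 at 0.1 µg/L the log2 difference was −1.05, and with 1 library left in that group the adjusted p was 0.567. It was 0.0716 without library 1 alone.

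The 1 µg/L mean of ccn1 was 13.9 ± 2.98 CPM (SD, n = 4), which is 2.49-fold below the control. Library 5, the one with control-like nr1d1, was the highest at that dose, and without it the log2 difference from the control was −1.48, against −1.31 with it. The doses of 10 and 1 µg/L differed in ccn1 by 0.02 (SE 0.21, edgeR adjusted p = 1.0). Compared with 0.1 µg/L, 1 µg/L was 2.15-fold lower (log2 SE 0.24), which missed the threshold at an edgeR adjusted p of 0.0605. It passed in 3 of 16 edgeR fits with 1 library left out. Without library 5 at 1 µg/L the log2 difference was −1.27 (edgeR adjusted p = 0.0193). Without library 3 at 0.1 µg/L or library 4 at 10 µg/L the adjusted p was 0.00388 or 0.0355. The highest of the 16 was 0.242, without library 1 at 1 µg/L. Of all 24 alternatives it passed in 5. Over all genes, up to 6096 were called in this comparison with 1 library left out. At 0.1 µg/L ccn1 differed from the control by −0.21 (SE 0.24, edgeR adjusted p = 0.601).

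The CCN2 genes, which encode connective tissue growth factor, gave no call. ccn2a, on chromosome 20 from 25340814 to 25343490, had 21.6, 12.7, 14.9 and 9.87 CPM in the controls and 8.82, 9.43 and 12.0 CPM at 0.1 µg/L. It had 21.0, 20.8, 22.2 and 9.03 CPM at 1 µg/L, and at 10 µg/L 13.2, 10.8, 10.2, 25.5 and 12.6 CPM. The groups overlapped, and single libraries set the spread: library 5 was the lowest at 1 µg/L, and library 4 the highest at 10 µg/L. The log2 difference from the control at 10 µg/L was −0.03 (SE 0.31, edgeR adjusted p = 0.999), and that between 1 and 0.1 µg/L was 0.85 (SE 0.37, edgeR adjusted p = 0.186). The within-library ratio of ccn1 to ccn2a counts was 1.91 to 3.12 in the controls and 2.43 to 3.59 at 0.1 µg/L, against 0.751 to 1.59 at 10 µg/L. In libraries 1, 2 and 4 at 1 µg/L it was 0.579 to 0.588, and in library 5 it was 2.03. The share of gene pairs whose ratio separates at 10 µg/L as this one does was not counted. ccn1 was also among the genes on which the choice was made.

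ccn2b, on chromosome 19 from 13803155 to 13808632, was scarce, with 254 reads in all, and overlaps BX950225.1, which has 13 reads and lies on the other strand. The controls had 2.39, 2.52, 0.761 and 2.49 CPM, and the libraries at 10 µg/L had 1.71, 0.542, 1.18, 0.809 and 0.424 CPM. The 1 µg/L libraries had 0.387, 1.04, 0.715 and 1.57 CPM, and those at 0.1 µg/L 0.870, 1.45 and 1.98 CPM. Control library 4 sat among the exposed libraries, so the groups overlapped. The log2 difference at 10 µg/L was −1.12 (SE 0.51, edgeR adjusted p = 0.58).

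ankrd1a, whose mammalian counterpart is a stretch-induced YAP target of heart and skeletal muscle, could not be tested. It lies on chromosome 17 from 23462972 to 23472265. It was listed only in the table of 0.1 µg/L with the control, with 1 read in control library 1 and 1 read in library 3 at 0.1 µg/L, and was set to 0 in the libraries of the other doses. In the 5 libraries of that table with no read, a count of 0 allows a level of up to 0.208 to 0.372 CPM, depending on the library, with 3 counts as the limit for counting error alone. The zebrafish paralog ankrd1b was far more abundant. Its control libraries had 26.5, 32.0, 17.4 and 7.46 CPM, and its libraries at 10 µg/L had 8.61, 3.25, 2.65, 6.65 and 8.27 CPM, overlapping through control library 5. The log2 difference was −1.82 (SE 0.41, edgeR adjusted p = 0.078) at 10 µg/L. The 3 libraries at 0.1 µg/L had 33.2, 38.8 and 27.5 CPM of ankrd1b. DESeq2 also called ankrd1b at 10 µg/L against the control. In the list of 4 tested CCN and paralog genes that are not members, the next was ccn6, at 0.25 (SE 0.39, edgeR adjusted p = 0.968) at 10 µg/L.

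The angiomotin-like genes, whose products sit at cell junctions and bind YAP, were abundant and steady. amotl2a, on chromosome 6 from 27991943 to 28001131, ranged from 79.5 to 94.7 CPM in the controls, 67.6 to 81.8 CPM at 0.1 µg/L, 68.5 to 91.0 CPM at 1 µg/L and 72.6 to 89.0 CPM at 10 µg/L. Its log2 difference at 10 µg/L was −0.14 (SE 0.12, edgeR adjusted p = 0.872). amotl2b, on chromosome 2 from 22851832 to 22861178, had 30.8, 25.7, 32.4 and 33.1 CPM in the controls and 18.4, 22.7, 20.8, 28.7 and 25.9 CPM at 10 µg/L. Libraries 4 and 5 at 10 µg/L reached into the control range. The log2 difference was −0.39 (SE 0.17), with an unadjusted p of 0.0381 and an edgeR adjusted p of 0.559. amotl2b ranged from 20.2 to 31.6 CPM at 1 µg/L and from 25.2 to 36.5 CPM at 0.1 µg/L.

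**Figure D3:**
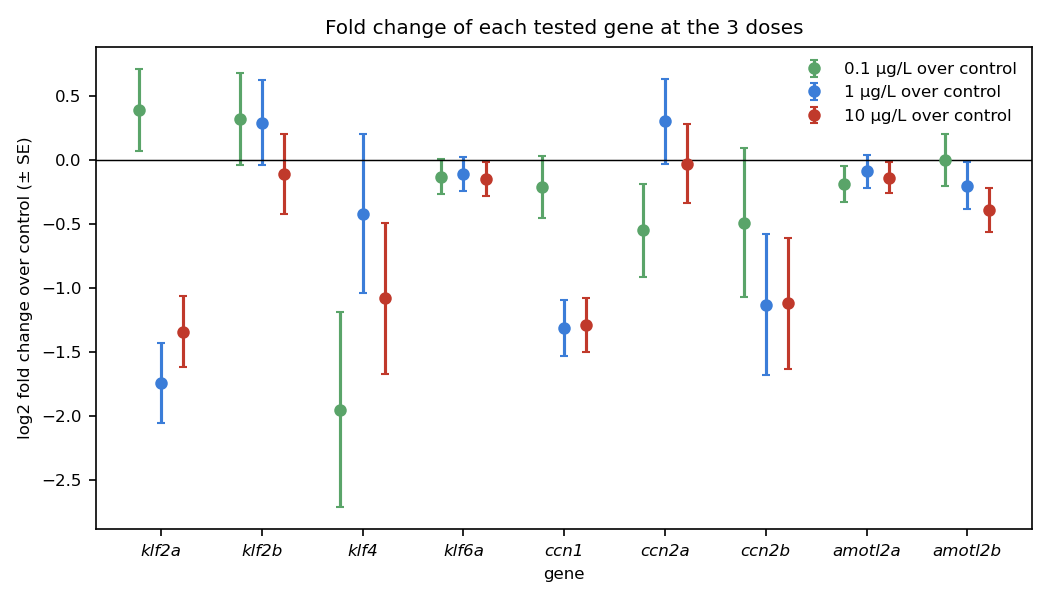
Log2 fold change over the control of the 9 tested genes at 0.1, 1 and 10 µg/L, with error bars of 1 SE derived from edgeR's F statistic. klf2a and ccn1 lie at −1.34 and −1.29 at 10 µg/L, klf6a and amotl2a stay within −0.19 to −0.09 at all 3 doses, and the scarce klf4 and ccn2b have the widest errors.

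Counted over the tested members, 1 of 9 was called lower at 10 µg/L against the control and 0 higher in edgeR, where 0.225% of all genes were called in either direction and 0.141% lower. DESeq2 called 2 of the 9 and 1.39% of all genes, and limma-voom 1 of the 9 and 0.32%. All 9 had negative log2 differences, with a median of −0.39 against −0.02 over all genes tested, and 4 had an unadjusted p under 0.05, as did 8.23% of all genes. For 2 of the 9, klf2a and ccn1, every exposed library lay below every control library, as it did for 2.82% of all genes. The 2 members called at 1 µg/L were klf2a and ccn1, on which the choice was made, beside 0.0681% of all genes called in either direction and 0.0524% called lower. At that dose 2 of 9 did not overlap the controls, beside 2.65% of all genes, and 7 of 9 had negative differences, with a median of −0.20. These comparisons share the control libraries.

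At 0.1 µg/L against the control edgeR called 0 of the 9 members and 0% of all genes. DESeq2 and limma-voom also called 0 members, beside 10.3% and 0% of all genes, and 1 member, klf4, had an unadjusted p under 0.05, as did 21.8% of all genes. Between 10 and 1 µg/L edgeR again called 0 members and 0% of all genes, DESeq2 and limma-voom called 0 members, beside 0.0475% and 0% of all genes, and no member had an unadjusted p under 0.05, beside 2.88% of all genes. Against 0.1 µg/L, 2 of 9 members were called lower at 10 µg/L, where 10.6% of all genes were called in either direction and 7.35% lower. Between 1 and 0.1 µg/L it was 1 of 9, klf2a, where 0.194% of all genes were called in either direction and 0.136% lower. Without libraries 1 and 2 at 0.1 µg/L, both of these counts of members were 0.

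The genes differed in how much they varied between libraries of a group. The within-group SD of log2 CPM was 0.14 for amotl2a, and 0.15 for klf6a, against a median of 0.26 for tested genes with a mean of 50 to 150 CPM. For amotl2b it was 0.24 and for ccn1 0.30, against 0.32 for genes with a mean of 15 to 50 CPM. It was 0.42 for klf2a, 0.46 for klf2b, 0.50 for ccn2a and 0.68 for both klf4 and ccn2b, against a median of 0.47 over all tested genes. No band was set under 15 CPM, so this last median is not matched to the level of these genes.

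After the group means were subtracted, the 9 genes shared little of this variation over the 16 libraries. The 36 pairwise Pearson correlations of log2 CPM ran from −0.47 to 0.69 with a median of 0.18, as a description only, since all pairs share the same libraries and scaling. The highest were klf6a with amotl2a at 0.69, klf6a with amotl2b at 0.53 and klf2b with ccn2a at 0.51. klf2a and ccn1, the pair that was low at both higher doses, had a correlation of 0.17. Without libraries 1 and 2 at 0.1 µg/L the range was −0.50 to 0.76 and the median 0.23.

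**Figure D4:**
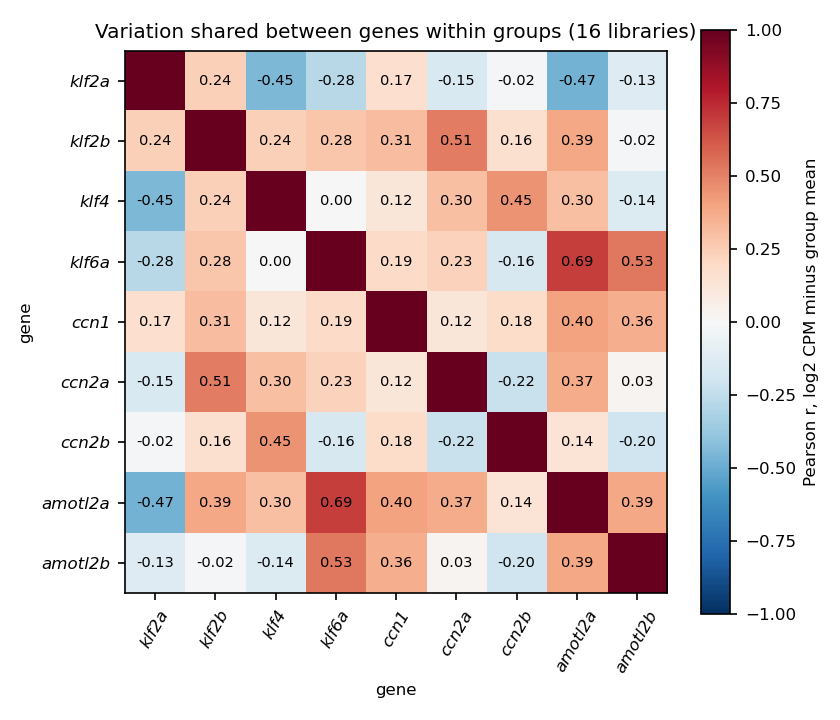
Pearson correlation of log2 CPM between the 9 tested genes after subtraction of each group's mean, over 16 libraries; colour and number give r. The highest value is 0.69, for klf6a with amotl2a, and klf2a with ccn1 has 0.17.

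The genes whose within-group pattern was most like that of klf2a were dhrs13l1 (r = 0.91), lsg1 (0.87), tmsb1 (0.87), supt4h1 (0.86) and mao (0.85), over 16 libraries and among tested genes with a mean of at least 2 CPM. Without libraries 1 and 2 at 0.1 µg/L these values were 0.79, 0.59, 0.72, 0.58 and 0.64. For ccn1 the closest were dcaf15 (0.82), oxct1b (0.82), coq7 (0.81) and gadd45gb.1 (0.81), with 0.84, 0.90, 0.82 and 0.82 without those libraries. None of these 9 genes was called at 1 or 10 µg/L against the control, and their log2 differences at 10 µg/L lay between −0.32 and 0.37.

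The wider pathways around the members were read from lists chosen with earlier results known, and each list leaves the members out. Some lists share genes: 11 of the flow list stand in other lists, 8 of them among the endothelial markers. Over all genes, 4.89% at 1 µg/L and 8.23% at 10 µg/L had an unadjusted p under 0.05. There edgeR called 0.0681% and 0.225% of all genes, and DESeq2 0.32% and 1.39%. At such shares 0 edgeR calls in a short list says little. The counts of each list stand beside these shares. Of 47 other genes of flow sensing and response that were tested, edgeR called 0 at 1 or 10 µg/L, with medians of −0.03 and −0.05 against −0.02 over all genes. Their number at an unadjusted p under 0.05 was 0 at 1 µg/L and 4 at 10 µg/L, where DESeq2 called 1, bmp4. The lowest p values in that list belonged to bmp4, at −0.80 (SE 0.20, edgeR adjusted p = 0.143), and to the cation channel gene trpv4, at −1.79 (SE 0.59, edgeR adjusted p = 0.32), both at 10 µg/L. Of 14 other Krüppel-like factor genes edgeR called 0 at these doses, and 1 and 2 had an unadjusted p under 0.05. DESeq2 called 2 of them at 10 µg/L, klf3 and klf9. klf3 had −1.26 (SE 0.27, edgeR adjusted p = 0.0672) and the glucocorticoid-responsive klf9 −2.07 (SE 0.54, edgeR adjusted p = 0.153) at 10 µg/L. There klf3 was 3.8 ± 0.448 CPM (SD, n = 5), against 9.15 ± 0.987 CPM in the controls (SD, n = 4). For klf9 these values were 16.2 ± 7.07 and 68.5 ± 10.3 CPM. Both genes passed in edgeR when library 5 at 1 µg/L was left out (adjusted p = 0.0305 and 0.0219). Of 24 alternatives at 10 µg/L klf3 passed in 5 and klf9 in 3.

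The counts in this paragraph stand beside the same shares. These were 4.89% and 8.23% of all genes at an unadjusted p under 0.05. Calls were 0.0681% and 0.225% by edgeR, and 0.32% and 1.39% by DESeq2. Of 56 tested genes of the Hippo kinases, YAP, TAZ, TEAD and their regulators, edgeR and DESeq2 called 0 at 1 or 10 µg/L. Of these genes 1 and 3 had an unadjusted p under 0.05, and the medians were −0.06 and −0.04. The closest were rassf1, at 0.55 at 10 µg/L (SE 0.17, edgeR adjusted p = 0.255), and the cadherin gene dchs1a, at −0.49 at 1 µg/L (SE 0.19, edgeR adjusted p = 0.954). A list of 20 genes of a YAP and TAZ signature, of which lats2 and nuak2 are also in the Hippo list, held 0 calls by either tool, with 2 at an unadjusted p under 0.05 at each dose and medians of 0.06 and −0.08. In it f3b, which encodes tissue factor, had −0.99 at 10 µg/L (SE 0.32, edgeR adjusted p = 0.312) and gadd45ab −0.62 at 1 µg/L (SE 0.27, edgeR adjusted p = 0.998). Of 23 other reported YAP targets, 5 of which (ajuba, edn1, tagln, myca and mycb) are also in the other lists, edgeR called 0, with medians of −0.34 and −0.25 and 2 and 5 at an unadjusted p under 0.05. DESeq2 called 1 of them at 10 µg/L, ptgs2b, a prostaglandin synthase gene. In edgeR ptgs2b had −1.49 at 10 µg/L (SE 0.33, edgeR adjusted p = 0.0743, and 0.0357 without library 5 at 1 µg/L), and mycb −0.51 at 1 µg/L (SE 0.15, edgeR adjusted p = 0.54). At 10 µg/L ptgs2b passed in 5 of 24 alternatives. The 31 genes of SRF, MRTF and their targets, the other main route from actin to transcription, held 0 calls by either tool, had 0 and 3 genes at an unadjusted p under 0.05, and had medians of 0.07 and −0.19, with cnn2 at −0.62 (SE 0.19, edgeR adjusted p = 0.266) and actb1 at 0.62 (SE 0.27, edgeR adjusted p = 0.54) at 10 µg/L.

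The immediate early genes, which respond to growth factor and neuronal signals, held calls. Of 51 tested, 6 were called lower and 0 higher at 1 µg/L, and 5 lower and 0 higher at 10 µg/L, with a median log2 difference of −0.69 at both doses. Over all genes 0.0524% and 0.141% were called lower. Those with an unadjusted p under 0.05 numbered 29 and 33, beside 4.89% and 8.23% of all genes, and DESeq2 called 10 and 15, beside 0.32% and 1.39%. Without library 5 at 1 µg/L edgeR called 18 lower at 1 µg/L, with a median of −0.90, and 15 lower at 10 µg/L, with a median of −0.69. With any other library left out it called 3 to 6 and 1 to 8. Over all genes, calls at 1 µg/L numbered 105 without library 5, against 13 with it. At 10 µg/L they reached 131 with 1 library left out, against 43. Library 5 was singled out partly by per1a, which is itself in this list. The values without that library are therefore not independent of its choice. Called by edgeR at both doses were fosab, a subunit of AP-1, the zinc finger gene egr4, the nuclear receptor gene nr4a1 and the antiproliferative gene btg2. fosab was 4.26-fold lower at 1 µg/L (edgeR adjusted p = 0.00561) and 2.97-fold lower at 10 µg/L (0.0157), and nr4a1 was 4.62-fold (0.0126) and 6.34-fold lower (0.000936). Without library 5 at 1 µg/L the folds at that dose were 6.17 for fosab (edgeR adjusted p = 1.38e-06) and 7.12 for nr4a1 (3.23e-06). nr4a1 missed the threshold at 1 µg/L without library 2 or 4 of that dose (0.108 and 0.0865) or control library 3 or 4 (0.052 and 0.0553), and fosab at 10 µg/L without library 2 of that dose (0.0677) or control library 3, 4 or 5 (0.054 to 0.0692). Of all 24 alternatives at 1 µg/L, nr4a1 passed in 19 and fosab in 23. For the highest dose, egr4 passed in 18 and btg2 in 11 of 24 alternatives. In library 5 at 1 µg/L fosab was 56.5 CPM, between the 19.8 to 20.6 CPM of the other libraries at that dose and the 106 to 161 CPM of the controls. ccn1 in that library was likewise the highest of its group. Of 14 genes that respond to stress and tissue handling, 1 was called at 10 µg/L, the chaperone gene hsp90aa1.2, which was 3.20-fold lower (edgeR adjusted p = 0.000936). DESeq2 also called 1. The median of the 14 was −0.72, with 11 negative and 5 at an unadjusted p under 0.05, while at 1 µg/L it was −0.08, with 7 negative, 2 at an unadjusted p under 0.05, 0 called by edgeR and 1 by DESeq2. The part of the immediate early and stress genes in the ccn1 and klf2a values was not tested.

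**Figure D5:**
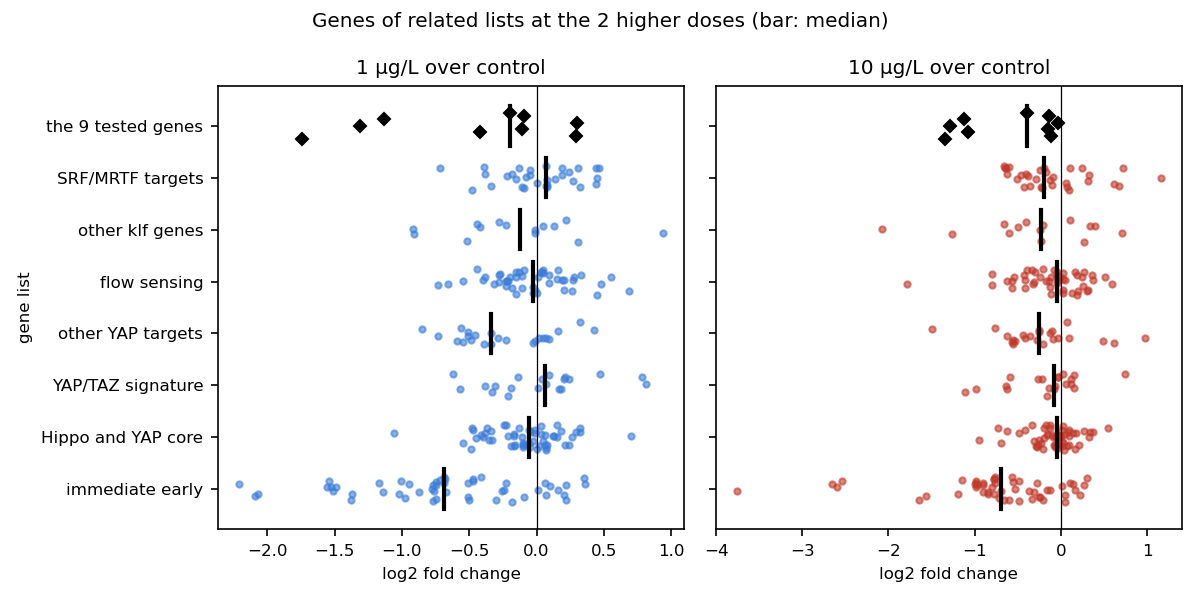
Log2 fold change over the control at 1 µg/L (left) and 10 µg/L (right) of the tested genes of each list; points are genes and black bars medians. The immediate early genes have a median of −0.69 in both panels, while those of the flow sensing and Hippo lists lie between −0.06 and −0.03.

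The authors' deposited table gave the same directions for the pair. It was made from the same libraries, and its 1 µg/L values belong to the comparison used for the choice. It is therefore no independent support. It listed klf2a at a log2 difference of −1.73 (adjusted p = 3.88e-07) at 1 µg/L and −1.32 (0.0001133) at 10 µg/L. For ccn1 the authors' deposited table listed −1.30 (adjusted p = 4.557e-06) and −1.27 (1.367e-05). In it 112 of 25272 listed genes had an adjusted p under 0.05 at 1 µg/L and 390 of 25531 at 10 µg/L. At 0.1 µg/L it was 70 of 24975, with no member among them. No member other than klf2a and ccn1 had such a value at any of the 3 doses.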

How the data were processed

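Poly(A) RNA of zebrafish larvae was sequenced as directional libraries, per the labels' protocols. The authors deposited whole-number counts per gene in 3 tables, 1 for each dose with the same controls, beside log2 fold changes, p-values and gene lengths. fastp, HISAT2, featureCounts and DESeq2 and the build GRCz11 are named in the submitters' processing notes; no annotation release or strand setting is given in these sources. The tables were joined by gene identifier, with 0 for a gene missing from a table (26183 genes, 24560 in all 3). Library numbers come from the column names. Counts of 9708464 to 13862232 per library limit the precision for scarce genes.

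All 16 libraries entered 1 fit with 4 groups in edgeR 4.0.16 (R 4.3.3; filterByExpr with a minimum count of 10, TMM, robust quasi-likelihood test), with Benjamini-Hochberg adjustment over 19092 genes and calls under 0.05. The SE of a log2 difference in edgeR was derived as its absolute value over the square root of the test's F statistic. CPM used TMM-scaled library sizes, and correlations log2 CPM with a prior count of 2. The edgeR test of 1 µg/L against the control was run on simulated counts with known changes. That simulation held no outlying library and did not cover DESeq2 or limma-voom. Alternatives were other scalings, no filter, DESeq2 1.42.0, limma-voom 3.58.1, the compared groups alone, a replicate block, each library left out, and both outlying libraries left out. Named beside the members are the genes of each related list that were called, up to 4, or otherwise the 2 with the lowest p, and the 5 genes most like klf2a and ccn1, of which 1 is not reported here. nr1d1 and per1a were added after their values were seen, as were the alternatives for genes that are not members. The members and lists were chosen with earlier results of these data known.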

Additional observations from a re-analysis of the deposited data

Results flagged for a closer look

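Over the 9 tested genes, 27 sets of 4 or 5 libraries were examined by Dixon's test at the 95% level. Chance gives about 1 in 20 for independent sets of normally distributed values. These sets reuse the same libraries for each gene, so no excess can be read from the count. Of the 27 sets, 7 held a library far from the others of its group. In the controls these were library 1 for klf2a, at 18.4 CPM, library 4 for ccn2b, at 0.761 CPM, and library 3 for amotl2a, at 94.7 CPM. Library 5 at 1 µg/L stood out as the highest for ccn1, at 18.4 CPM, and as the lowest for ccn2a, at 9.03 CPM. Library 4 at 10 µg/L was the highest for ccn2a, at 25.5 CPM, and for amotl2a, at 89.0 CPM.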

How the results depend on the processing

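No called value of the members, nor of the other genes named from the lists at 1 and 10 µg/L against the control, changed direction under any alternative; those of the other genes were computed after the data were seen. Called immediate early genes ran from 1 to 10 around 6 at 1 µg/L and from 2 to 18 around 5 at 10 µg/L under other settings. At 1 µg/L against the control, 1 member was called in place of 2 with DESeq2 size factors in edgeR, library size only, no filter, limma-voom or the compared groups alone. At 10 µg/L against the control, 2 members were called in place of 1 with library size only, DESeq2, the compared groups alone, or without libraries 1 and 2 at 0.1 µg/L. At 10 against 0.1 µg/L the count fell from 2 to 1 with library size only, and to 0 with the compared groups alone or without those 2 libraries. At 1 against 0.1 µg/L it went from 1 to 2 with DESeq2 size factors or DESeq2, and to 0 with library size only, the compared groups alone or without those 2 libraries. With each library left out in turn the counts ran from 0 to 2 for each dose against the control, from 0 to 3 for 10 and for 1 against 0.1 µg/L, and were 0 throughout for 10 against 1 µg/L. The cause was not tested. The replicate block called 0 members at 1 and 10 µg/L against the control and at 1 against 0.1 µg/L, and 2 at 10 against 0.1 µg/L. In that block ccn1 had an edgeR adjusted p of 0.0767 at 10 µg/L. Deviations of same-numbered libraries had a median r of −0.102 over 18 pairs (−0.441 to 0.447), with 5 over 0.1. The 77 pairs of other numbers had a median of 0.015, with 28 over 0.1. Whether same-numbered libraries shared a clutch or batch was not tested, and the numbers are used here only as names. klf2a at 1 µg/L passed in 7 of 24 alternatives and ccn1 in 12, and at 10 µg/L klf2a in 6 and ccn1 in 20. Over all genes, the count of calls at 10 µg/L against the control ran from 8 to 249 around 43 under other settings and from 10 to 131 with 1 library left out, at 1 µg/L from 6 to 61 and 5 to 105 around 13, and at 0.1 µg/L from 0 to 1432 and 0 to 6262 around 0. At 10 against 0.1 µg/L it ran from 0 to 3441 and 86 to 7150 around 2026, at 1 against 0.1 µg/L from 0 to 1496 and 2 to 6096 around 37, and at 10 against 1 µg/L from 0 to 8 and 0 to 1 around 0. Scaling by library size alone moved the median of all genes at 0.1 µg/L against the control from −0.09 to −0.50. Depth limits klf4 and ccn2b, with at most 23 and 34 reads a library.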
